A study of Mus musculus with 6 samples.

Results

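SR proteins and heterogeneous nuclear ribonucleoproteins (hnRNPs) are the RNA-binding proteins that choose splice sites in a pre-mRNA, and their mRNA levels were compared between leukemic and normal myeloid progenitors of the mouse. The set is defined by gene symbol, with no measured value in the rule. It holds every gene of the deposited table named Srsf with a number, every gene whose symbol starts with Hnrnp, and Sf3b1, U2af1, U2af2, Zrsr2, Tra2a and Tra2b. This gave 35 of the 16440 genes, namely 11 SR proteins, 18 hnRNPs and 6 partner factors.

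In both groups the cells came from bone marrow (BM) of the FVB N/J strain and were sorted for c-Kit. Normal myeloid progenitors (MPs, 3 libraries) carried no mature lineage marker and no Sca-1, which leaves out stem cells (Lin-Sca-1-c-Kit+). The acute promyelocytic leukemia (APL) cells (3 libraries) came from hMRP8-PML/RARα mice, in which a human myeloid promoter drives the fusion oncogene. They had been labeled with GFP through the retroviral vector MigR1, expanded in syngeneic recipients and sorted as GFP-labeled c-Kit+ cells, whereas the normal MPs carried neither transgene nor vector. The submitters describe 3 biological replicates per group without saying whether each came from its own mouse or how many independent leukemias were used, so n counts libraries and the p-values measure the spread between them. The study's methods give recipients of leukemic cells as 6 to 10 weeks old when injected, and the age of the mice behind the normal MPs is not given in the sources used here.

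SR proteins bind exonic enhancers through RNA recognition motifs, and their arginine and serine rich tails recruit the spliceosome to the adjoining splice sites. Many hnRNPs coat nascent RNA and can keep exons out, so the balance of the 2 families can affect which exons are used. At the end of the intron, U2af2 binds the polypyrimidine tract, U2af1 reads the AG dinucleotide, and Sf3b1, in the U2 snRNP, clamps the branch point. The human counterparts of Sf3b1, Srsf2, U2af1 and Zrsr2 are recurrently mutated in myeloid neoplasms. Here only the mRNA level of each gene was measured, and neither mutations nor splice isoforms were examined.

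The libraries held between 21876288 and 25810097 scaled fragments, that is, estimated fragments per gene multiplied by a factor of each library. Replicates of a group differed by 3.06 to 14.0 times the variance that counting alone gives, and MP library 3 stood farthest from its group, so counts are also given without it. Cell identity differed along with the disease. Kit was at 70.6 to 74.5 FPKM (fragments set against transcript length and library size) in the MP libraries and at 39.6 to 40.7 FPKM in the APL libraries. Of the 10 erythroid markers, 9 could be tested and all 9 fell, and their summed level was 1593 to 2061 FPKM in the MP libraries against 44.1 to 53.0 FPKM in the APL libraries. Summed megakaryocyte markers stood at 61.8 to 95.3 against 3.48 to 4.73 FPKM, Sca-1+ stem cell markers at 9.89 to 14.5 against 2.40 to 3.02 FPKM, and mast cell, basophil and eosinophil markers at 181 to 306 against 62.1 to 83.9 FPKM. Summed neutrophil granule genes were at 9387 to 11614 FPKM in the MP libraries and 23845 to 28443 FPKM in the APL libraries, and monocyte genes at 70.7 to 82.1 and 280 to 305 FPKM. The genes of both lists moved both ways. Of 7 neutrophil granule genes 3 rose, 2 fell and 2 did not pass, with a median log2 fold change of 0.12. Of 6 monocyte genes 4 rose and 2 fell. Among the lists with lower sums, 4 of 5 Sca-1+ stem cell markers fell and 1 rose (log2 fold change 0.68). Likewise 4 of 5 mast cell, basophil and eosinophil markers fell and 1 rose (1.13). B cell markers summed to 12.3 to 14.7 FPKM in the MP libraries against 0.305 to 0.636 FPKM in the APL libraries. T or NK cell markers summed to 2.17 to 2.95 against 0.108 to 0.167 FPKM. Cd3e was listed at 0 in all MP libraries and Cd3g in all APL libraries. The part of these cell identities in the results below was not tested.

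The question was whether splicing factor mRNAs differ between the c-Kit+ APL progenitors and the normal MPs. None of the 35 genes was higher in the APL progenitors at a limma adjusted p under 0.05, and 0 were higher at an unadjusted p under 0.05, while 24 of the 35 were lower. Among all 14595 genes tested, 37.3% were lower and 29.7% were higher by the same rule. All APL values lay below all MP values for 26 of the 35 genes, against 39.8% of all genes tested. For 0 of the 35 they lay above, and 9 genes overlapped. Counting both directions, the groups did not overlap for 10351 of the 14595 genes tested, so a lack of overlap was common in this comparison. The differences were small. With a fold change over 1.5 added to the rule, only Srsf7, Srsf10 and U2af1 were lower and 0 genes were higher, against 24.4% and 21.7% of all genes tested, so the share past this fold was below that of all genes. Because these are highly expressed genes, the comparison was repeated among the 7573 genes with a mean of at least 500 scaled fragments, a background chosen after the values were seen. Of those genes, 37.3% were lower at the adjusted p and 15.8% were lower past the fold, while of the 34 members that reach this level 24 and 3 were. In bulk RNA, fewer cells of a type and less RNA per cell cannot be told apart.

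**Figure D1:**
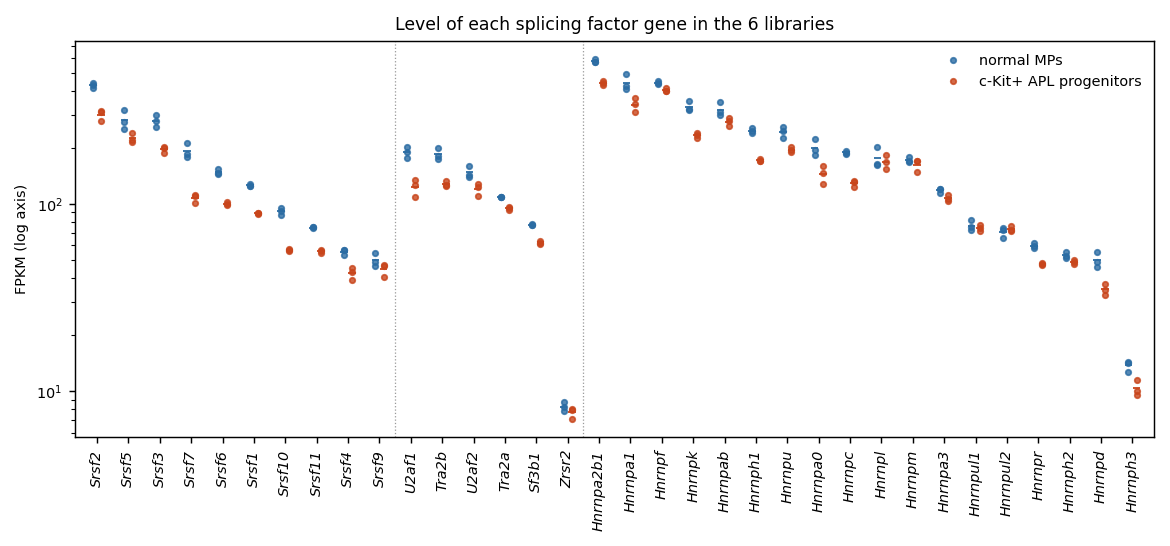
Level of 34 genes in FPKM (vertical log axis) in each of the 3 normal MP libraries (blue points) and the 3 c-Kit+ APL libraries (red points), with group means as short bars. SR proteins, partner factors and hnRNPs are separated by dotted lines and ordered by their MP mean, from Hnrnpa2b1 at 581 FPKM to Zrsr2 at 8.26 FPKM, and Srsf12 is left out because it was near 0 in all libraries.

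The median log2 fold change (APL against MP) of the 34 genes other than the barely detected Srsf12 was -0.39, against -0.10 for all genes tested. By family it was -0.46 for the 10 SR proteins above the floor of 3 fragments, of which 9 fell at the adjusted p, -0.33 for the 18 hnRNPs, of which 10 fell, and -0.30 for the 6 partner factors, of which 5 fell. Together the 35 mRNAs took up 1.85% to 1.98% of all scaled fragments in the MP libraries and 1.36% to 1.38% in the APL libraries. Such a share sets each library against its own total, as scaling to the same total does, and so depends on the other genes of the library. Of the scalings compared below, that one gave the lowest member median.

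**Figure D2:**
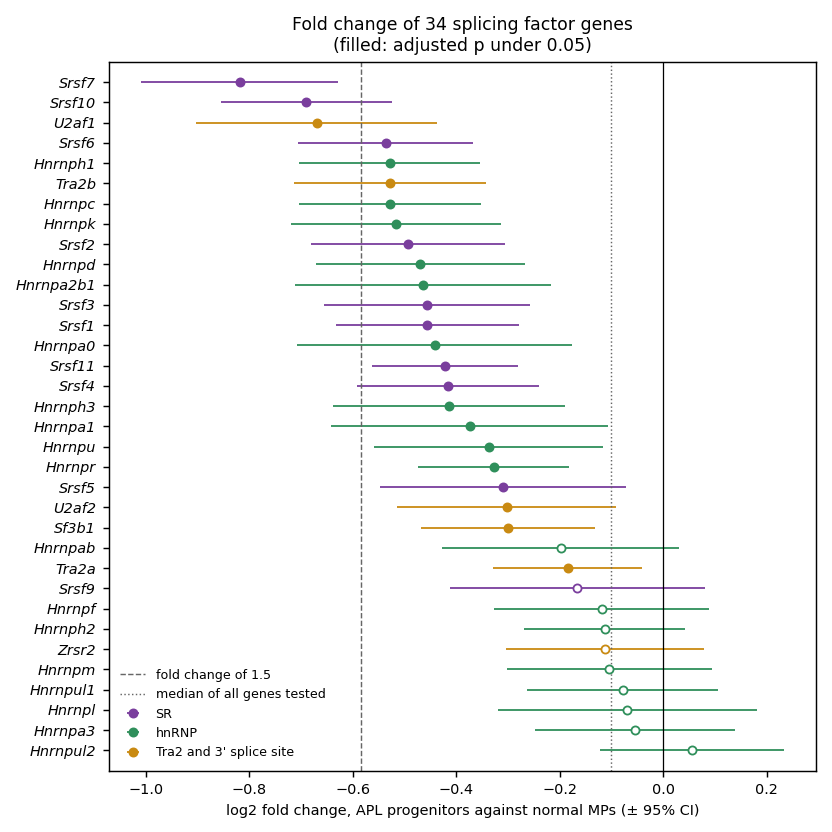
Log2 fold change of 34 genes, APL progenitors against normal MPs, on the horizontal axis with the 95% confidence interval of the limma fit. Filled points passed the adjusted p, the dashed line marks a fold change of 1.5, the dotted line marks the median of all genes at -0.10, and points run from Srsf7 at -0.82 to Hnrnpul2 at 0.06.

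Srsf7 showed the lowest log2 fold change of the set. It encodes an SR protein with a zinc knuckle beside its RNA recognition motif. Its scaled fragments were 10279, 10908 and 12233 in the MP libraries and 6358, 6449 and 6097 in the APL libraries. The groups stood well apart, and the lowest MP library was above the highest APL library by more than the range within either group. The mean was 1.76-fold lower in the APL progenitors, with a log2 fold change of -0.82 (SE 0.08, limma adjusted p = 3.04e-05, n = 3 per group). As for each gene whose groups did not overlap, the two-sided exact permutation p was 0.1, the smallest that 3 libraries against 3 allow.

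Srsf10, an SR protein known to act as a repressor of splicing when it is dephosphorylated, had 6754, 7258 and 6351 scaled fragments in the MP libraries. Its APL values were 4179, 4131 and 4299, and lay within a far narrower band than the MP values. The log2 fold change was -0.69 (SE 0.07, limma adjusted p = 3.69e-05), or 1.61-fold lower in the APL progenitors. U2af1 had 4237, 3876 and 4668 scaled fragments in the MP libraries and 2378, 2684 and 2986 in the APL libraries. Its libraries scattered more than those of Srsf7 and Srsf10, yet the highest APL value remained below the lowest MP value. The log2 fold change of U2af1 was -0.67 (SE 0.10, 95% CI -0.90 to -0.44, limma adjusted p = 0.000387), a 1.59-fold lower mean. The 95% CI of Srsf7 was -1.01 to -0.63 and excludes a fold of 1.5, which is 0.58 on the log2 scale, while those of Srsf10 (-0.86 to -0.52) and of U2af1 include it.

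**Figure D3:**
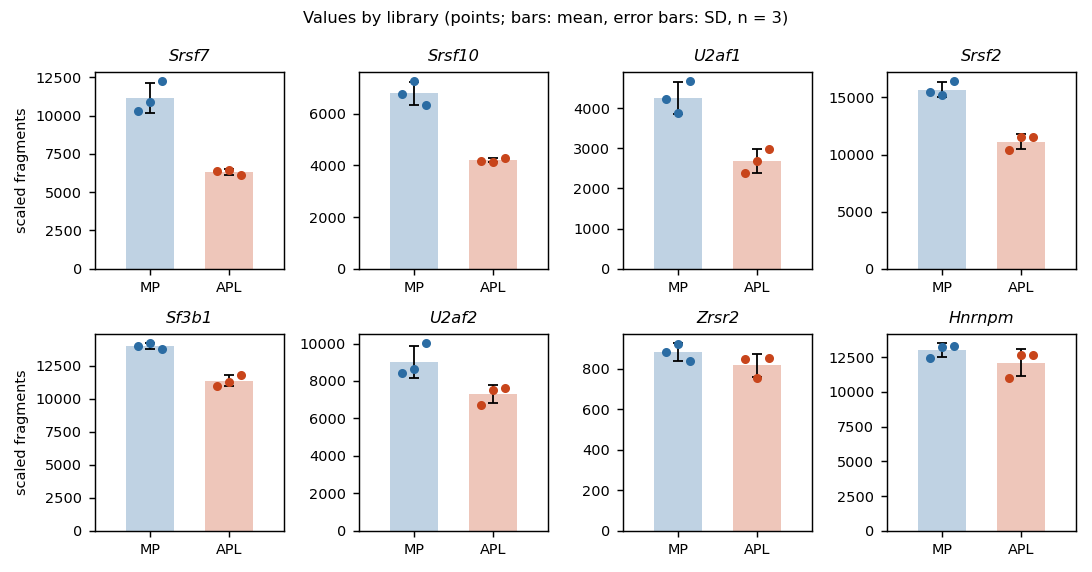
Scaled fragments (vertical axes, starting at 0) of 8 genes in the 3 MP libraries (blue) and the 3 APL libraries (red). Points are libraries, bars group means and error bars SD, and the groups overlap for Zrsr2 and Hnrnpm but not for Srsf7, Srsf10, U2af1, Srsf2, Sf3b1 and U2af2.

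The sequences just upstream of these 3 genes are shown because they were the ones lower past a fold of 1.5. They are the 250 bases before the RefSeq transcription start on GRCm38.p6, read 5′ to 3′ on the gene's own strand. The Srsf7 window is chr17:80207306-80207555 (minus strand), that of Srsf10 is chr4:135855821-135856070 (plus strand, ending 20 bases before the start given in the deposited table), and that of U2af1 is chr17:31658755-31659004 (minus strand). Capitals mark exact matches, on either strand, to motif letters chosen after the expression values were seen.
Srsf7: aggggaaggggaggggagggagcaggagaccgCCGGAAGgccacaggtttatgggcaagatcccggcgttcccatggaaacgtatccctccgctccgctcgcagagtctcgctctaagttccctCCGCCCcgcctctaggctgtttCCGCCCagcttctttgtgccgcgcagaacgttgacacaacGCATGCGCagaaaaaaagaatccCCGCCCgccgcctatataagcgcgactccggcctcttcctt
Srsf10: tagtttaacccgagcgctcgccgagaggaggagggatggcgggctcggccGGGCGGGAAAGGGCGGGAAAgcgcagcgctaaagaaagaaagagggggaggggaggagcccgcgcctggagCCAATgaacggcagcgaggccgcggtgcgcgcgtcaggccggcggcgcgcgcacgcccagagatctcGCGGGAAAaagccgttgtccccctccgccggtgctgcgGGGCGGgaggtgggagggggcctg
U2af1: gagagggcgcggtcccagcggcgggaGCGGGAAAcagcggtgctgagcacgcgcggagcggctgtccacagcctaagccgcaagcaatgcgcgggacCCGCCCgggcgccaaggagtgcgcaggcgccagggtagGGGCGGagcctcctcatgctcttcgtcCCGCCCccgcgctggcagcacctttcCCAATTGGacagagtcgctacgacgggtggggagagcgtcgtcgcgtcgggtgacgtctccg

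Capitals in the Srsf7 window are an ETS motif (CCGGAAG) 218 bases before the start, GC boxes (GGGCGG, here as CCGCCC) at 126, 104 and 41 bases, and an NRF1 motif (GCATGCGC) at 64 bases, counted to the motif's first base. The Srsf10 window holds the E2F letters TTTCCCGC, here as GCGGGAAA, 3 times, and the first 2 of these matches each overlap a GC box by 4 letters. It also holds another GC box, 24 bases before the start, and a CCAAT box. The U2af1 window holds the E2F letters once, 3 GC boxes, and the run CCAATTGG, which reads as a CCAAT box on both strands and counts as 2 overlapping matches. Promoters were found for 33 of the 35 members, all but U2af2 and Hnrnpul2. The E2F letters occurred in 5 of the 33 (Hnrnpul1, Srsf1, Srsf10, Tra2b and U2af1), against 1.76% of the 11537 promoters of tested genes. Of these 5 genes, Hnrnpul1 did not pass the adjusted p. GC boxes were in 26 of the 33 against 57% of promoters, CCAAT boxes in 17 against 36.3%, and ETS letters in 6 against 13.3%. TATAAA was found in 3 members (7% of promoters), the E-box CACGTG in 2 (8.07%), the NRF1 letters in 2 (4.26%), the CRE letters TGACGTCA in 1 (2.64%) and the retinoic acid receptor motif AGGTCA in 2, Srsf3 and Srsf9 (10.7%). A match describes letters only, and binding was not measured.

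Loci are given as in the deposited table, on GRCm38. Srsf2, at chr11:116849896-116853094, which binds both purine-rich and pyrimidine-rich exonic enhancers, was the highest SR protein gene by FPKM. It stood at 433, 414 and 444 FPKM in the MP libraries and at 278, 310 and 313 FPKM in the APL libraries. In scaled fragments the values were 15435, 15176 and 16409 against 10376, 11498 and 11540.0. The groups did not overlap, and the log2 fold change was -0.49 (SE 0.08, limma adjusted p = 0.000671), with a 95% CI of -0.68 to -0.31. Srsf12 was the lowest SR protein gene. It stood at 0, 0.0115 and 0.0222 FPKM in the MP libraries and at 0.0145, 0.0105 and 0.0148 FPKM in the APL libraries. Each of these values rested on fewer scaled fragments than the floor of 3, so no fold is given and Srsf12 enters no median, and it counts among the genes that did not pass the test.

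The other SR proteins did not pass the fold of 1.5. Srsf6 fell by 0.54 on the log2 scale, Srsf3, the smallest SR protein, and Srsf1, the founding member of the family, by 0.46 each, and Srsf11 and Srsf4 by 0.42 each. Srsf5 fell by 0.31 (limma adjusted p = 0.0265). Its call was lost without APL library 1 (log2 fold change -0.29) and without APL library 2 (-0.27). Srsf11 had the tightest replicates of the set, with 6877, 6785 and 6771 scaled fragments in the MP libraries and 5087, 5087 and 5075 in the APL libraries. Srsf9 was the one SR protein above the floor that did not pass, with a log2 fold change of -0.17 (95% CI -0.41 to 0.08, limma adjusted p = 0.203) and overlapping groups.

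Tra2a and Tra2b encode SR-like activators that bind GAA-rich exonic enhancers. Tra2b fell by 0.53 on the log2 scale (SE 0.08, limma adjusted p = 0.000407), with 9744, 10146 and 11173 scaled fragments in the MP libraries against 6887, 7069 and 7566 in the APL libraries. Tra2a had 5240.0, 5253 and 5332 scaled fragments against 4497, 4668 and 4759. Its groups did not overlap, but the difference was small, with a log2 fold change of -0.18 (SE 0.06, limma adjusted p = 0.0277). That call was lost when any library other than MP library 3 was left out (log2 fold changes between -0.20 and -0.16) and under median ratio scaling (-0.12). Within each library, the ratio of Tra2b to Tra2a in FPKM was 1.60, 1.66 and 1.84 in the MP libraries and 1.33, 1.31 and 1.38 in the APL libraries, a difference without overlap (two-sided exact permutation p = 0.1, the smallest possible).

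Of the factors that recognize the 3′ splice site and branch point, Sf3b1 (chr1:54985169-55027478) had 13982, 14212 and 13782 scaled fragments in the MP libraries and 10991, 11306 and 11796 in the APL libraries. Each group was tight, and Sf3b1 fell by 0.30 on the log2 scale (SE 0.07, limma adjusted p = 0.00602). U2af2, the large subunit of U2AF, had 8429, 8621 and 10013 scaled fragments against 6728, 7535 and 7645. It also fell by 0.30 (SE 0.09, limma adjusted p = 0.0173), a call lost without APL library 1 (log2 fold change -0.24). Zrsr2 (chrX:163935442-163958666), which recognizes the 3′ splice site of minor introns, was the lowest of this group, with 884, 924 and 838 scaled fragments against 845, 752 and 852. The groups overlapped and the log2 fold change was -0.11 (95% CI -0.30 to 0.08, limma adjusted p = 0.263, exact permutation p = 0.3). Of the 4 genes whose human counterparts are recurrently mutated in myeloid neoplasms, U2af1, Srsf2 and Sf3b1 fell and Zrsr2 did not pass the test.

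The 2 subunits of U2AF work as a heterodimer, and their mRNAs were lower by unequal amounts. The FPKM ratio of U2af1 to U2af2 was 1.35, 1.24 and 1.27 in the MP libraries and 0.988, 1.03 and 1.05 in the APL libraries. The groups did not overlap (two-sided exact permutation p = 0.1, the smallest possible). This ratio and the others within libraries were chosen after the values were seen.

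Among the hnRNPs, Hnrnpa2b1 (chr6:51460434-51469894) had the highest level, at 574, 596 and 573 FPKM in the MP libraries and 441, 433 and 451 FPKM in the APL libraries. In scaled fragments it had 48496, 51904 and 48465 against 35336, 34325 and 38257. The groups stood apart, and it fell by 0.46 on the log2 scale (SE 0.11, limma adjusted p = 0.00458). Hnrnpa1, the best known repressor of exons in this family, fell by 0.37 (limma adjusted p = 0.0195), a call lost without APL library 1 (log2 fold change -0.30) or APL library 2 (-0.37). It lies on chromosome 15, where the 563 genes tested had a median of 0.46 on this scale. Hnrnpa0 fell by 0.44, whereas Hnrnpa3 was at -0.05 (95% CI -0.25 to 0.14), a value that moved to 0.01 under median ratio scaling. Hnrnpab was at -0.20 (95% CI -0.43 to 0.03, limma adjusted p = 0.111) although its groups did not overlap.

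Reads of some hnRNPs may be shared with other loci. In the deposited table Hnrnpa1 overlaps the locus of Gm10052, Hnrnpa3 that of Gm6793, Hnrnpab that of Agxt2l2, Hnrnph3 that of Rufy2 and Hnrnpk that of Rmi1. Fragments could be divided between the members of each pair, so the values of these 5 genes are uncertain.

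The F and H hnRNPs bind runs of G and act as enhancers or silencers by position. Hnrnph1 fell by 0.53 on the log2 scale (SE 0.08, limma adjusted p = 0.000286), with 15544, 16293 and 15205 scaled fragments in the MP libraries and 10623, 10653 and 11339 in the APL libraries. Its close paralog Hnrnph2 was at -0.11 (95% CI -0.27 to 0.04, limma adjusted p = 0.171) with overlapping groups. The FPKM ratio of Hnrnph1 to Hnrnph2 was 4.44, 4.82 and 4.63 in the MP libraries and 3.56, 3.46 and 3.48 in the APL libraries (two-sided exact permutation p = 0.1, the smallest possible). Paralogs of this likeness can share reads, which bears on this ratio. Hnrnph3 was the lowest hnRNP by FPKM. It had 862, 889 and 794 scaled fragments against 609, 589 and 716, and fell by 0.41 (SE 0.10, limma adjusted p = 0.00502). Hnrnpf had 29440.4, 29374 and 30296 against 26636, 26991 and 28430.4 scaled fragments. Its groups did not overlap, yet its log2 fold change of -0.12 (95% CI -0.33 to 0.09) did not pass (limma adjusted p = 0.275).

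The other hnRNPs split into those that fell and those near the median of all genes. Hnrnpc, which binds U tracts, and Hnrnpk, which binds C-rich RNA, fell by 0.53 and 0.52 on the log2 scale (limma adjusted p = 0.000301 and 0.000799). Hnrnpd, also called AUF1 and known for binding AU-rich elements of unstable mRNAs, fell by 0.47, Hnrnpr by 0.33, and Hnrnpu, a nuclear scaffold protein, by 0.34. The call of Hnrnpu was lost without MP library 1 (log2 fold change -0.29) or APL library 2 (-0.33). Hnrnpm was the gene nearest to the median of all genes tested, with 12413, 13258 and 13306 scaled fragments in the MP libraries and 11022, 12635 and 12663 in the APL libraries. The groups overlapped, and its log2 fold change was -0.10 (95% CI -0.30 to 0.09, limma adjusted p = 0.314, exact permutation p = 0.3). Hnrnpl, which binds CA repeats, was at -0.07 (95% CI -0.32 to 0.18) and at 0.05 without MP library 3. Hnrnpul1 was at -0.08 (95% CI -0.26 to 0.11). Hnrnpul2 was the one gene of the 34 with a value above 0, at 0.06 (95% CI -0.12 to 0.23), and this turned to -0.04 under quantile normalization and to -0.08 with libraries scaled to the same total.

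The levels of the 2 families can be set against each other within a library. The summed FPKM of the SR proteins was 1681, 1681 and 1823 in the MP libraries and 1191, 1229 and 1233 in the APL libraries. For the hnRNPs the sums were 3701, 3744 and 3915 against 2957, 3052 and 3171. These sums hold only genes whose symbol starts with Hnrnp and leave out hnRNP-type proteins under other symbols, such as Ptbp1 and Pcbp1. The ratio of the SR sum to the hnRNP sum was 0.454, 0.449 and 0.466 in the MP libraries and 0.403, 0.403 and 0.389 in the APL libraries, so each APL library had a lower ratio than each MP library. No test was run on these sums. Replicate spread within a gene was small, with a median coefficient of variation of 5.68% across the MP libraries and 5.11% across the APL libraries. APL library 3 held the highest APL value for 29 of 34 genes. MP library 3 was at both ends of its group, with the highest MP value for 21 genes and the lowest for 12. Across the 34 genes, the log2 fold change was weakly related to the log2 mean FPKM in MPs (Pearson's r = -0.26, Spearman's rho = -0.32), a description over genes that share their libraries.

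How deep the decrease appeared depended on the scaling. Scaling all libraries to the same total moved the median of all genes tested by -0.13 to -0.23 and the median of the 34 members to -0.52, and 13 members were then lower past the fold and 31 at the adjusted p. Under quantile normalization 10 and 28 were lower, and the member median was -0.44 against -0.04 for all genes. Under median ratio scaling 3 and 23 were lower, with a member median of -0.33 against -0.04 for all genes, and on FPKM 3 and 24. The median of the members minus that of all genes was -0.29 in the deposited scaling and between -0.40 and -0.23 over all alternatives. Without MP library 3, 3 members were lower past the fold and 24 at the adjusted p.

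**Figure D4:**
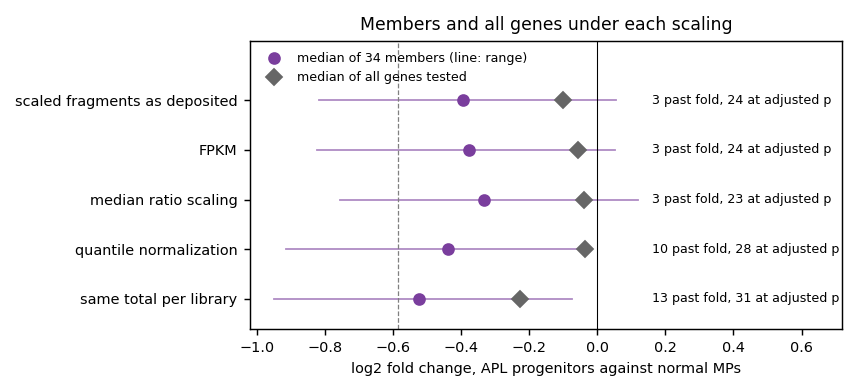
Log2 fold change, APL progenitors against normal MPs, under 5 scalings (rows). Circles are the median of the 34 members with a line over their range, diamonds the median of all genes tested, the dashed line marks a fold change of 1.5, and the counts of members lower run from 3 to 13 past the fold and from 23 to 31 at the adjusted p.

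To set the SR and hnRNP genes beside the rest of the splicing machinery, 9 lists of other splicing genes were read from the same fit, 163 genes in all, of which 158 could be tested. At the adjusted p, 96 of the 158 were lower and 23 were higher, with a median log2 fold change of -0.31, against 37.3% and 29.7% of all genes tested. Past the fold of 1.5 the counts were 31 and 11, both smaller shares than the 24.4% and 21.7% of all genes tested. The lists below are to be read against these shares, and no list was tested against other genes. Genes that rose at the adjusted p were found in 8 of the 9 lists. Some of them lie on chromosome 8 (Lsm4, Lsm6, Sf3b3 and Sugp1 among them) or chromosome 15 (Ddx23, Puf60 and Scaf11 among them). Others, such as Rod1, Clk4, Srpk2 and Zrsr1, lie elsewhere. These are examples, and the chromosome of other genes that rose, such as Dhx38 and Upf3a, is not given here. Of the 778 genes tested on chromosome 8, 458 were higher at the adjusted p, with a median of 0.48. On chromosome 15, 323 of 563 were higher, with a median of 0.46. The part of these chromosomes in the rises was not tested.

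The SR protein kinases and the importer of SR proteins phosphorylate the tails of SR proteins and carry them into the nucleus. Of 9 tested, 5 were lower and 2 higher at the adjusted p, with a median of -0.49. Prpf4b, a kinase of the spliceosome, fell by 0.75 on the log2 scale (limma adjusted p = 0.0002), and Clk1 and Srpk1 were the other genes lower past the fold, with 0 higher. Of 24 SR-related proteins, 17 were lower and 2 higher, with a median of -0.44, and Scaf8, a factor that binds the tail of RNA polymerase, fell the most, with 2366, 2412 and 2280 scaled fragments in the MP libraries against 944, 908 and 885 in the APL libraries (log2 fold change -1.37). For the hnRNP-type proteins under other symbols, 8 of 17 were lower and 3 higher, with a median of -0.26. Pcbp3, a poly-C binding protein, had 322, 272 and 368 scaled fragments in the MP libraries and 0, 1.73 and 1.23 in the APL libraries, while its relative Pcbp4 rose by 1.16 on the log2 scale from low levels (29.97, 34.3 and 54.1 against 77.8, 93.6 and 88.9).

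Core snRNP proteins build the spliceosome itself. Of 10 Sm core and U1 snRNP proteins, 8 were lower and 0 higher at the adjusted p, with a median of -0.45, and Snrpg fell by 0.78. Of 17 U2 snRNP and branch site proteins, 10 were lower and 4 higher, with a median of -0.25. Sf3a2 fell by 0.73, whereas Zrsr1, the autosomal relative of Zrsr2, rose by 0.72 (limma adjusted p = 0.00132), with 219, 259 and 306 scaled fragments in the MP libraries and 431, 440.4 and 407 in the APL libraries. Zrsr1 and Zrsr2 are close in sequence, and reads could be divided between them. Overlap with other loci was looked up for the members only, not for Zrsr1 (chr11:22899727-22982284) or the other listed genes. Of 21 tri-snRNP proteins, 15 were lower and 3 higher, with a median of -0.36. Lsm3 fell by 0.77 while Lsm4, another subunit of the same kind of ring, rose by 0.80. The 3 higher genes were Lsm4 and Lsm6 on chromosome 8 and Ddx23 on chromosome 15. Of 23 Prp19 complex and late step factors, 11 were lower and 3 higher, with a median of -0.12, close to that of all genes. Prpf19, the ubiquitin ligase of the complex, fell by 0.95, and the helicase Dhx38 rose by 0.92.

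Of 15 exon junction complex and nonsense-mediated decay factors, 7 were lower and 2 higher at the adjusted p, with a median of -0.27. The paralogs Upf3b and Upf3a moved in opposite directions, with log2 fold changes of -0.88 (limma adjusted p = 2.15e-05) and 0.75 (limma adjusted p = 0.00028). Of 22 other splicing regulators, 15 were lower and 4 higher, with a median of -0.36, and the extremes were far wider than among SR proteins and hnRNPs. Khdrbs3, a STAR family regulator, had 256, 292 and 355 scaled fragments in the MP libraries and 0 to 3.70 in the APL libraries. Rbm24, a tissue-specific regulator, had 2.81, 3.81 and 0 scaled fragments in the MP libraries and 69.5, 67.6 and 64.2 in the APL libraries. For comparison, 12 of 18 proliferation genes were lower and 2 higher at the adjusted p, with a median of -0.31, and the cyclin gene Ccna2 fell by 0.86. Their summed level was 1717 to 1910.0 FPKM in the MP libraries and 1539 to 1618 FPKM in the APL libraries, and the part of proliferation in the splicing factor values was not tested.

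**Figure D5:**
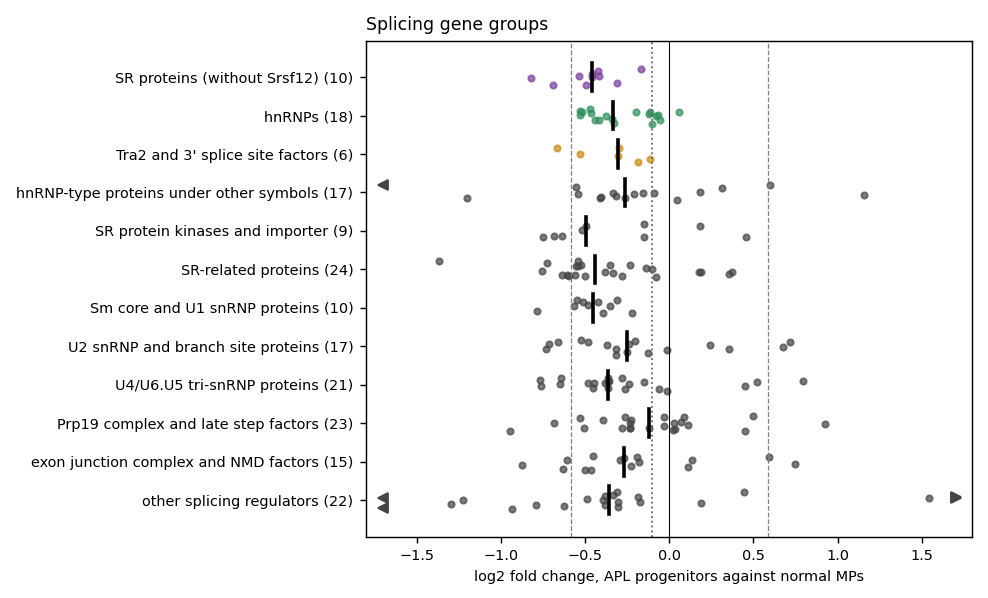
Log2 fold change (horizontal axis), APL progenitors against normal MPs, of each tested gene (points) in the SR, hnRNP and partner factor groups (colored) and 9 other splicing gene lists (grey), with the number of genes in brackets and the group median as a black bar. Dashed lines mark a fold change of 1.5, the dotted line the median of all genes at -0.10, and arrowheads genes beyond the axis, and all 12 group medians lie to the left of the dotted line.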

How the data were processed

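RNA-seq of 3 normal MP and 3 c-Kit+ APL libraries was analysed from one gene table. The authors deposited FPKM values and a signal of estimated fragments per gene that carries a scale factor for each library. The submitters' processing notes name CASAVA 1.8, TopHat2 2.0.6 and mm10, the paper's methods name Cutadapt, STAR, mm9 and HTSeq-count, and the tool that made the table, and its use of strand and multiply mapped reads, is not given in the sources used here. The values were not whole, so no count test was run.

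Genes with at least 1 scaled fragment in at least 3 of 6 libraries (14595) were fitted with limma 3.58.1 (lmFit, eBayes with trend) in R 4.3.3 on log2(scaled fragments + 1), the scale of all fold changes and 95% intervals. Genes were called at a Benjamini-Hochberg adjusted p under 0.05 over all genes tested, with or without a fold change over 1.5. Genes were compared with each other only in FPKM. For members at or under 3 fragments in all libraries (Srsf12) no fold is reported, and they enter no median of members. Single values were compared by two-sided exact permutation tests. The fit was tested on simulated data whose changes were larger than that of any member, so this test does not cover differences of the members' size.

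Given in full were Sf3b1, Srsf2, U2af1, Zrsr2, members past the fold, the highest and lowest SR protein and hnRNP by FPKM and the member nearest to the median of all genes, and from each list the largest changes among called genes. The members and lists were chosen with earlier results of these data known. Other library values, and Clk1 and Srpk1, were named after their values were seen. Library numbers 1 to 3 did not pair the groups. Alternatives covered the scaling, FPKM, the low-value filter, the pseudocount, the fold threshold, a replicate block and each library left out. Promoters are from RefSeq on GRCm38.p6 (12897 of 16440 genes matched, 11537 of them tested).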

Additional observations from a re-analysis of the deposited data

How the results depend on the processing

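The SR, hnRNP and partner genes lower past the fold of 1.5 numbered 3 in the deposited scaling, 10 under quantile normalization, 13 with libraries scaled to the same total, 24 with the adjusted p alone and 0 with a fold over 2, and 3 with each library left out. The number lower at the adjusted p was 20 to 24 with each library left out, and 0 were higher under each setting tried. Other splicing genes lower past the fold went from 31 to 55 at the same total, 96 with the adjusted p alone and 7 with a fold over 2, and those higher from 11 to 7 on FPKM, 23 with the adjusted p alone and 4 with a fold over 2. Among all genes, 3558 were lower, with 1980 on FPKM, where fewer genes were tested, and 5443 with the adjusted p alone. The sign turned for Hnrnpa3 under median ratio scaling (0.0079), for Hnrnpul2 under quantile normalization (-0.0368) and at the same total (-0.0751), and for Hnrnpl with a library left out (-0.130 to 0.046), none of which passed the test in the deposited scaling. Of the 34 genes above the floor, 19 kept direction and call in all 15 alternatives, and the cause of the other changes was not tested. Same-numbered libraries of the 2 groups correlated at -0.0016 to 0.135 in their deviations from the group means, so the numbers were not taken as pairs, and the fit with the replicate block gave 3 and 24 members lower past the fold and at the adjusted p. Not every sample correlated best with its own number. With 3 libraries a group, differences of the size of Hnrnpf or Zrsr2 could not be told from the spread between libraries.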
